A study of Rattus norvegicus with 54 samples.

Results

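The genes that encode the initiation and elongation factors of cytosolic translation were followed in the left ventricle of infarcted rats. Every gene whose symbol begins with Eif or Eef followed by a digit was taken, whatever its level, which gave 72 of the 40319 genes listed, 58 of them Eif and 14 Eef. They were sorted into 12 roles, with 4 copies or pseudogenes kept apart. Enough counts for a test in at least 1 comparison were found for 68 of them, and the other 4 were never tested. Eif2s3y was at 0 in all 54 libraries, which allows 3 counts, or 0.128 to 0.236 CPM (counts per 1000000 gene counts), at these depths. Eif3e and Eif4e1b each had counts in 1 library only, and Eif4g2-ps2, a pseudogene, was at 0 in 28 libraries. Eef1akmt3 and Eef1akmt4 were also below the filter on low counts, in remote tissue, which left 66 members there.

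Female athymic rats of the strain F344/NJcl-rnu/rnu, 8 weeks old by the study's methods, were given a sham operation, permanent ligation of the left anterior descending coronary artery (the untreated MI group), or the same ligation followed by a bi-level sheet of human endothelial progenitor cells and smooth muscle cells laid on the heart (the cell sheet group). All animals of the 3 groups lacked a thymus and so had no mature T cells. After 1 week the left ventricle was cut into infarct zone, border zone and remote tissue, with the matching regions taken from sham hearts, and RNA was sequenced from 6 rats per group, each giving 1 library per zone, 54 libraries from 18 rats in all. The labels call these 6 technical replicates, whereas the study describes separate animals. Its methods give 6 hearts per group, and its results allow for fewer in some groups. Each replicate number of a group was taken here as 1 rat, and p-values measure the spread between these libraries. By the study's methods, reads were aligned to the rat genome, with no step described that sets human reads apart. Whether reads of the human cells were counted under rat genes in the cell sheet libraries was not tested.

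Translation of most messenger RNAs begins when eIF4F (the cap-binding eIF4E, the scaffold eIF4G and the helicase eIF4A) brings an mRNA to a small ribosomal subunit that carries eIF3, eIF1, eIF1A and the eIF2 ternary complex with the initiator tRNA. The 4E-binding proteins hold eIF4E back until the kinase mTORC1 phosphorylates them, and stress kinases that phosphorylate eIF2 lower the supply of ternary complex by blocking its exchange factor eIF2B. In elongation, eEF1A delivers aminoacyl-tRNA, the eEF1B complex recharges eEF1A with GTP, and eEF2 moves the ribosome along until its kinase eEF2K stops it. Heart and skeletal muscle cells and neurons switch after birth from Eef1a1, the eEF1A of most cells, to the closely related Eef1a2. Many mRNAs of the translation machinery begin with a run of pyrimidines led by a C, the 5′ terminal oligopyrimidine tract, through which mTORC1 and the protein Larp1 control their translation and stability.

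The sequences around the annotated starts of 9 members are shown because this tract is read at the very first bases of an mRNA. They are the members named below for the largest changes after cell sheet treatment, together with both eEF1A genes, and come from RefSeq on the GRCr8 assembly with 15 bases on each side of the start. Capitals mark the longest run of a C followed by at least 4 pyrimidines. Eef1a1 lies at chr8:88225055-88225084 on the minus strand, Eef1a2 at chr3:188652619-188652648 on the minus strand, Eef1b2 at chr9:72074076-72074105 on the plus strand and Eif3m at chr3:111897179-111897208 on the minus strand. Eif5a2 lies at chr2:113657819-113657848 on the plus strand, Eif2ak4 at chr3:125810192-125810221 on the plus strand and Eef2k at chr1:184824405-184824434 on the plus strand. Eif4ebp2 lies at chr20:29942908-29942937 on the minus strand and Eif4g1 at chr11:93746353-93746382 on the minus strand. Eif3el1 is named only.
Eef1a1: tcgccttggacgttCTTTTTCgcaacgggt
Eef1a2: cgctcgggtacatctctgcagctgcgtcct
Eef1b2: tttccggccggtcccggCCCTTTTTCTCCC
Eif3m: cgtaacaccgtgtggtaccgCTCCTTTTCC
Eif5a2: ggccccgccccgtCTCCTggaccagccgcg
Eif2ak4: gactcgaggccccgCCCCCagctcggtcaa
Eif4ebp2: gCTTCCggtagtcatcgttgccgctgctgc
Eif4g1: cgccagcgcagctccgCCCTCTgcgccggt
Eef2k: gctccaaccccagccacaacagccccagct
The runs of Eef1b2 (13 bases) and Eif3m (10 bases) reach the end of the printed window, that of Eef1a1 has 7 bases, and Eef1a2 and Eef2k hold none. The run marked in Eif4ebp2 begins more than 10 bases before the annotated start and is not counted in the search that follows. A run of this kind, searched on the sense strand alone as a C with 4 further C or T letters and beginning within 10 bases of the annotated start, was found in 9660 of 33469 promoters (28.9%) and in 23 of the 60 members that matched an entry (38.3%). The letters describe these windows and were not used in any test.

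Gene counts per library ranged from 12699200 to 23397800, and the members took 1.04 to 1.95% of them. Sham replicate 5 was unlike the rest of its group wherever it was sampled. Its macrophage score, the mean log2 (CPM + 0.1) of 6 marker genes, was 7.47, 7.40 and 7.08 (infarct, border, remote), against group medians of 5.40, 5.45 and 4.93. The same score of 8 cardiomyocyte markers was 11.06, 10.92 and 11.71 against 12.52, 12.52 and 12.70. Cell sheet replicate 1 stood apart in the border zone, where its cardiomyocyte score was 4.10 against a group median of 11.12. Counts of members are therefore given with and without these animals. Below, single animals are named by group and replicate number, so that MI 1 is replicate 1 of the untreated MI group.

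Ligation changed the members in both directions, and fewest of them in the remote zone. Against sham, 15 members were higher and 19 lower in the infarct zone at an adjusted p under 0.05 (edgeR's quasi-likelihood test, adjusted over all genes tested), where 22.7% and 27.2% of all genes tested were called in these directions. The border zone had 8 higher and 15 lower, against 18.4% and 23.2% of all genes. The remote zone had 7 of each, against 11.7% and 14.2%. As shares of the members tested these were 22.1 and 27.9%, 11.8 and 22.1%, and 10.6% each way, near the background of the same zones in most cases. The median log2 fold change of the members was 0.00, 0.01 and −0.01, beside −0.02, −0.02 and −0.04 for all genes. Without sham replicate 5, the calls were 23 higher and 20 lower, 14 and 14, and 13 and 11. Calls of all genes rose as well, to 10434, 9641 and 7177, where 15758, 15641 and 15294 genes were tested with all animals. The 14 remote calls became 24 without sham replicate 5 and 7 without MI replicate 5, and were 8 or 9 without sham replicate 2, 3 or 4 or MI replicate 3 or 4. Of all genes, 2744 were called without MI replicate 5, and 2897 to 3193 in the fits with 8 or 9 members.

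The cell sheet left the infarct zone without a call and lowered a set of members in the border zone. Against untreated MI, 6 members were higher and 22 lower in the border zone, where 8.47% and 9.48% of all genes were called, so that 32.4% of the members tested stood beside a background of 9.48%. Remote tissue had 4 higher and 10 lower (6.06 and 15.2% of the members), against 10.3% and 6.79% of all genes. For infarct tissue, 0 members and 0 genes of any kind passed with edgeR (0% higher and 0% lower), and DESeq2 called 0 members. Of all genes, DESeq2 called 59 and the edgeR fit of all 54 libraries called 6. There, 3 members and 1341 genes had an unadjusted p under 0.05, and the lowest adjusted p of a member was 0.474. The median log2 fold change of the members was −0.05 (infarct), −0.21 (border) and −0.08 (remote), beside −0.01, 0.00 and 0.01 for all genes. Without cell sheet replicate 1 the border zone kept 5 higher and 23 lower, 27 of them among the 28, and the remote zone had 10 higher and 14 lower. In these 2 fits 3083 and 6450 of all genes were called, where 16272 and 15374 were tested with all animals. With all animals, 1579 genes were higher and 1044 lower in remote tissue, so the remote calls of all genes rose as well. The 14 calls of the remote zone fell to 6 without cell sheet replicate 5, to 7 without MI replicate 5 or cell sheet replicate 2, to 8 without MI replicate 4 or cell sheet replicate 3, and to 9 without MI replicate 3 or cell sheet replicate 4. In the same fits, calls of all genes ran from 1096 (without MI replicate 5) to 1804 (without cell sheet replicate 4).

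Against sham, cell sheet-treated hearts had 14 members higher and 22 lower in the infarct zone (28.6% and 29.2% of all genes), and 5 higher and 28 lower in the border zone (20.4% and 23.2%). The border count lower was 41.2% of the members tested. For remote tissue, edgeR called 0 members (0.0066% of all genes higher and 0% lower). DESeq2 called 2 members and 180 of all genes. There, 9 members had an unadjusted p under 0.05, and the lowest adjusted p was 0.166. Without sham replicate 5 the calls were 20 higher and 24 lower (infarct), 7 and 31 (border) and 0 (remote). Of all genes, 11159, 9954 and 17 were then called, where 15687, 15960 and 15157 were tested with all animals. Both comparisons with sham share the sham libraries, and both comparisons with untreated MI share those of that group, so their calls are not independent of each other.

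The direction of small changes depended on the scaling. Levels here are CPM after TMM normalisation. With library size alone as the scaling, 24 of the 161 uncalled comparisons of named genes changed sign. Among them, for the cell sheet against sham at the border, were those of Eif4g1 (to 0.23), Eef1b2 (to 0.04) and Eif6 (to 0.04). The median log2 fold change of all genes moved by 0.26, 0.19 and 0.13 for untreated MI against sham (infarct, border, remote). The members called became 27 higher and 7 lower, 14 and 7, and 15 and 4, beside 8322, 6554 and 3786 of all genes. Of the members called with TMM, 22 of 34, 15 of 23 and 11 of 14 were still called. For the cell sheet against sham the median of all genes moved by 0.27 in the infarct and 0.27 in the border zone. The members called were 25 higher and 9 lower, and 11 and 17, beside 9415 and 7458 of all genes. For the cell sheet against untreated MI the median moved by 0.05 in the border and −0.08 in the remote zone. There, 5 members were higher and 19 lower, and 2 and 12, beside 2847 and 2194 of all genes.

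**Figure D1:**
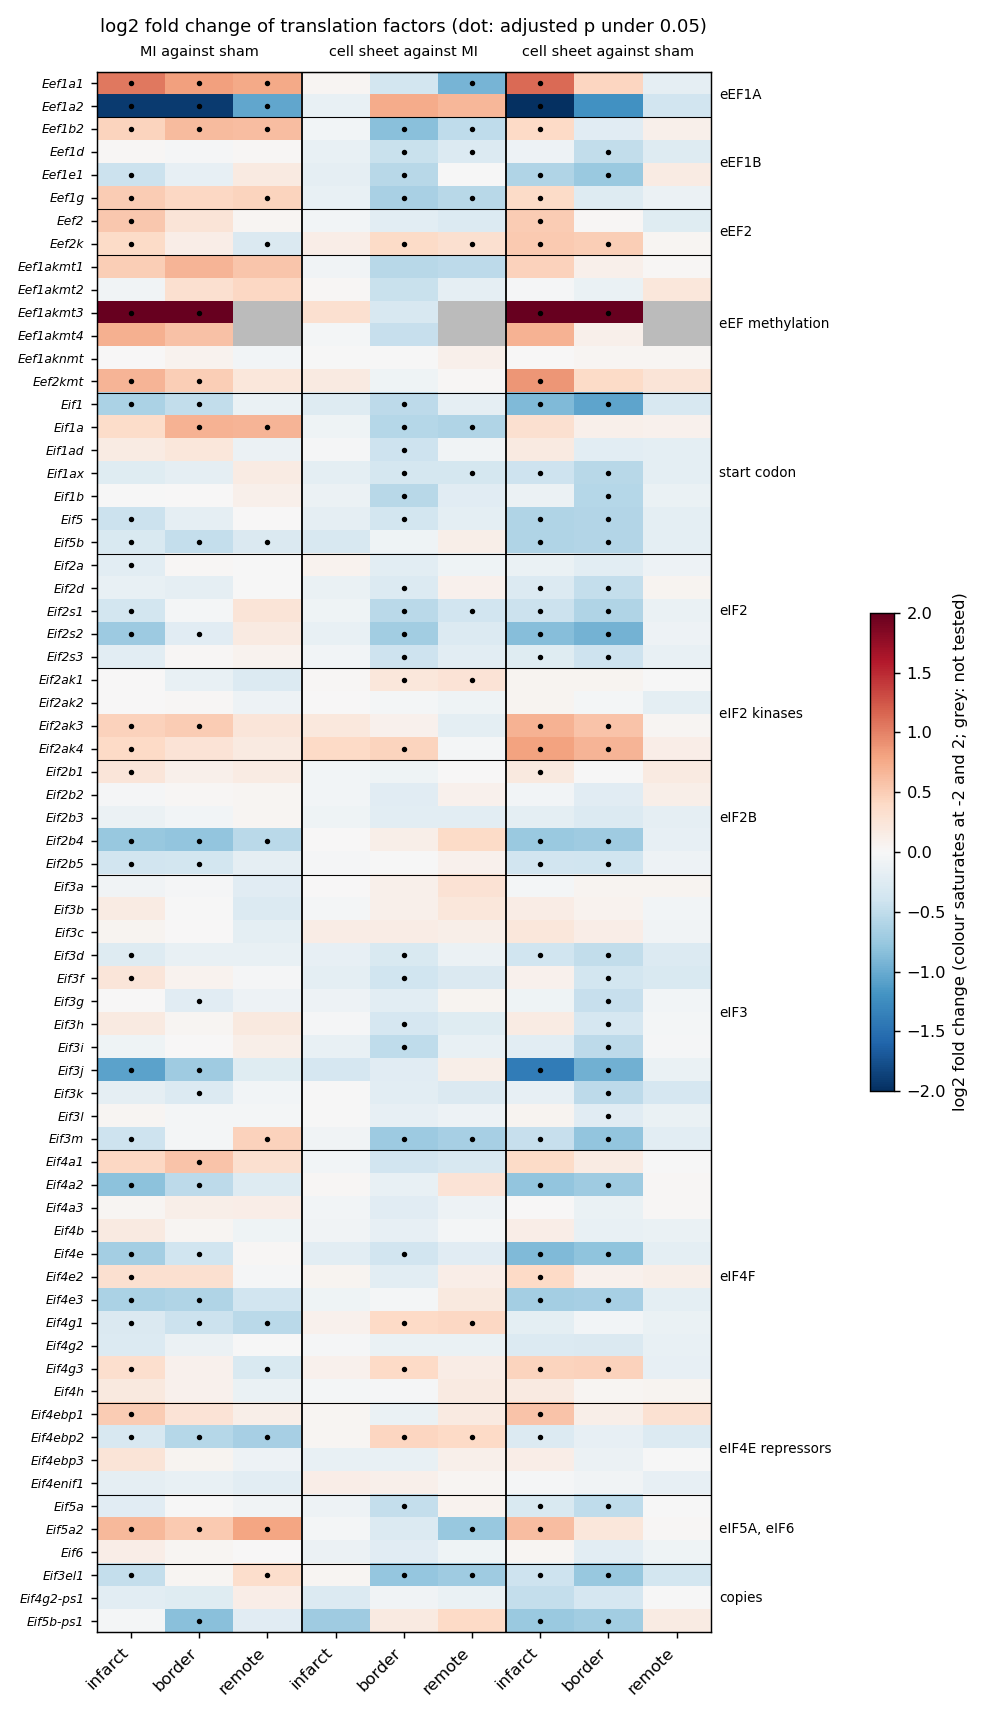
Log2 fold change of the 68 members tested, in rows grouped by role, for the 9 comparisons in columns (untreated MI against sham, cell sheet against untreated MI and cell sheet against sham, each in the infarct, border and remote zones); red is higher and blue lower in the group named first, colours end at 2 and −2, a dot marks an adjusted p under 0.05 and grey marks a member that was not tested. The cell sheet against untreated MI column of the infarct zone holds 0 dots, that of the border zone 28 and that of the remote zone 14.

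Of all members tested, Eef1a2, the muscle eEF1A, had the largest fall after ligation in each of the 3 zones, while Eef1a1 was higher. Infarct zone Eef1a2 measured 222 to 727 CPM (median 526) in sham hearts, 49.5 to 303 (median 90.0) in untreated MI hearts and 16.7 to 439 (median 44.1) in cell sheet hearts. The log2 fold change of untreated MI against sham, given with its standard error here and below, was −1.91 ± 0.49, adjusted p = 0.00791, and the groups overlapped. Border zone levels were 233 to 749 CPM (median 635) in sham hearts and 38.1 to 216 (median 198) in untreated MI hearts, with no overlap. The change was −1.92 ± 0.45, adjusted p = 0.00725. Remote levels of 564 to 954 CPM (median 867) in sham hearts and 293 to 528 (median 377) in untreated MI hearts again did not overlap. The change there was −1.04 ± 0.17, adjusted p = 0.0015, and a fit of all 54 libraries together did not call it (adjusted p = 0.23). In bulk tissue of mixed cells, fewer cells of a type and less of an RNA per cell cannot be told apart.

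Eef1a1 moved the other way. Its infarct zone levels were 1681 to 4474 CPM (median 1948) in sham hearts, 3773 to 5559.8 (median 5093) in untreated MI hearts and 3045 to 6763 (median 5097) in cell sheet hearts. The highest sham library, that of replicate 5, lay among the infarcted hearts. The log2 fold change of untreated MI against sham was 1.05 ± 0.27, adjusted p = 0.0081. Border zone levels were 1583 to 5095 CPM (median 2100.5) in sham hearts, 3765 to 5483 (median 4412) in untreated MI hearts and 2881 to 4417 (median 3294) in cell sheet hearts. The change after ligation was 0.82 ± 0.29, adjusted p = 0.0395. Remote levels were 1499.7 to 3781 CPM (median 1720.3) in sham hearts, 2133 to 4200.2 (median 3703) in untreated MI hearts and 1241 to 3434 (median 1552) in cell sheet hearts. The change was 0.75 ± 0.25, adjusted p = 0.0439. Sham replicate 5 held the highest sham value in each zone. RefSeq lists processed copies of Eef1a1, and how shared reads were counted is not given in the sources used here. The border call held without sham 5, MI 1 or MI 5 and was lost without any 1 of the other 9 animals (adjusted p 0.0566 to 0.0866). The remote call held without sham 5, MI 1 or MI 2 and was lost without any 1 of the other 9 animals (adjusted p 0.0762 to 0.097).

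Cell sheet-treated hearts had less Eef1a1 than untreated MI hearts in remote tissue. Its log2 fold change was −0.93 ± 0.28, adjusted p = 0.0375 there. Its border change of −0.37 ± 0.19, adjusted p = 0.185 and its infarct change of 0.04 ± 0.19, adjusted p = 0.971 did not pass. The remote call held without MI 1, MI 2 or cell sheet 1 and was lost without any 1 of the other 9 animals (adjusted p 0.0632 to 0.0871). Eef1a2 in the border zone spanned 3.32 to 462 CPM (median 311) in cell sheet-treated hearts, the lowest value being that of replicate 1. Its log2 fold change against untreated MI was 0.74 ± 0.76, adjusted p = 0.539 in the border zone and 0.66 ± 0.26, adjusted p = 0.0932 in the remote zone. Remote Eef1a2 measured 293 to 528 CPM (median 377) in untreated MI hearts and 224 to 816 (median 714) in cell sheet hearts, and without cell sheet replicate 1 the remote difference passed (adjusted p = 0.00107). Against sham, cell sheet-treated infarct tissue had more Eef1a1 (1.13 ± 0.28, adjusted p = 0.00572) and less Eef1a2 (−2.05 ± 0.77, adjusted p = 0.0374). The latter call held without sham 5, cell sheet 5 or cell sheet 6 and was lost without any 1 of the other 9 animals (adjusted p 0.0546 to 0.0743), and was lost with library size alone.

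**Figure D2:**
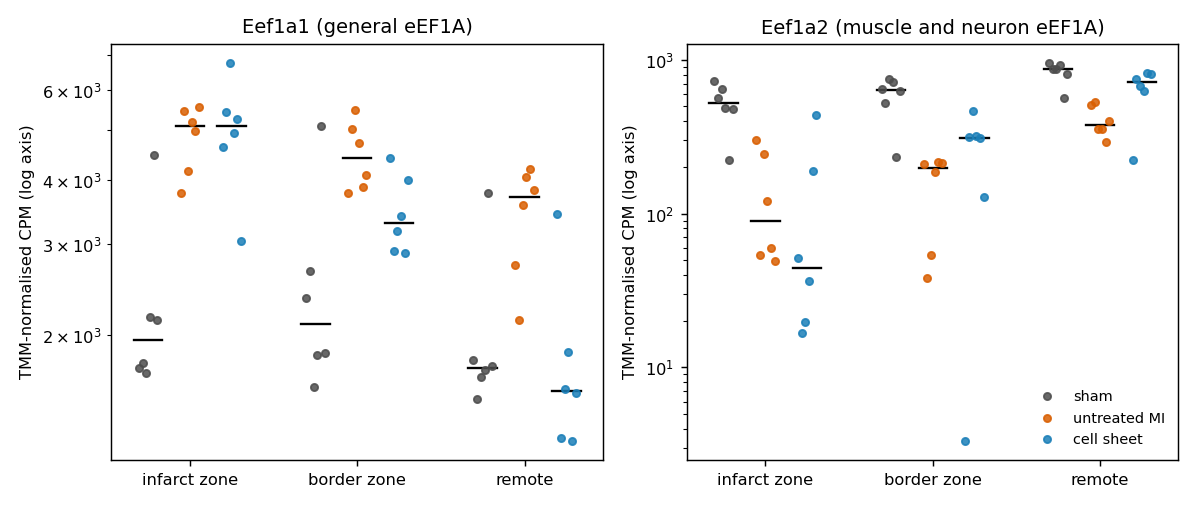
TMM-normalised CPM of Eef1a1 and Eef1a2 on a log axis, 1 point per library, for sham, untreated MI and cell sheet-treated hearts in each zone, with a line at the median of 6 libraries. Median Eef1a2 in the infarct zone was 526 CPM in sham and 90.0 CPM in untreated MI hearts, and median Eef1a1 was 1948 and 5093 CPM.

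The ratio of both genes within a library does not depend on the scaling, and its difference between groups does not depend on gene length. The log2 ratio of Eef1a2 to Eef1a1 was −4.33 to −1.24 (median −1.89) in sham and −6.81 to −3.64 (median −5.91) in untreated MI hearts in the infarct zone. The difference of means was −3.35 (exact adjusted p = 0.0219). Here and below, exact p is that of a permutation test. The ratio was also lower after ligation at the border, with a difference of −3.05 (exact adjusted p = 0.0244), and in remote tissue, with −1.84 (exact adjusted p = 0.0219). These tests were 2-sided, adjusted over 27 comparisons of 3 such measures, and could not go below an unadjusted p of 0.0021645 with 6 against 6 libraries. For the cell sheet against untreated MI the infarct, border and remote differences were −0.82 (exact adjusted p = 0.593), 0.51 (exact adjusted p = 0.78) and 1.57 (exact adjusted p = 0.0584). Against sham, they were −4.16 (exact adjusted p = 0.0195), −2.54 (exact adjusted p = 0.0623) and −0.27 (exact adjusted p = 0.713). Remote ratios spanned −2.75 to −0.79 (median −0.92) in sham, −3.84 to −2.02 (median −3.30) in untreated MI and −3.94 to −0.60 (median −1.07) in cell sheet-treated hearts, the lowest value of the last being replicate 1.

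Cardiomyocyte markers moved with Eef1a2. All 8 of them were lower in untreated MI than in sham hearts in the infarct and border zones and 4 of 8 in the remote zone, with a median log2 fold change of −1.82, −1.55 and −0.60. Their score spanned 11.06 to 12.80 (median 12.52) in sham and 8.14 to 11.73 (median 10.10) in untreated MI hearts in the infarct zone. Set against this score in the same library, log2 Eef1a2 differed between untreated MI and sham by 0.16 (exact adjusted p = 0.653), −0.26 (exact adjusted p = 0.0195) and −0.27 (exact adjusted p = 0.0146) (infarct, border, remote). The remote libraries of both groups did not overlap. In cell sheet-treated hearts, Eef1a2 was higher relative to this score than in untreated MI hearts in the border zone, −2.85 to −2.33 (median −2.83) against −3.56 to −3.31 (median −3.44), with no overlap. The highest of these cell sheet values was that of replicate 1, whose Eef1a2 was at 3.32 CPM and whose cardiomyocyte score was 4.10, the lowest of its group. The difference between both groups was 0.77 (exact adjusted p = 0.0146). The 8 markers did not move together in this comparison, with log2 fold changes from −1.08 to 1.00 and 0 called. The infarct zone difference was 0.60 (exact adjusted p = 0.0694) and the remote one 0.10 (exact adjusted p = 0.653). Against sham, it was higher in the infarct zone by 0.76 (exact adjusted p = 0.0146) and in the border zone by 0.52 (exact adjusted p = 0.0146), both with no overlap, and differed by −0.18 (exact adjusted p = 0.344) in the remote zone. Neurons also use Eef1a2, and the score of 5 nerve and Schwann cell markers spanned 0.15 to 2.74 (median 1.50) in border tissue of cell sheet-treated and 0.12 to 2.08 (median 0.78) in that of untreated MI hearts. Skeletal muscle uses it as well, and in the infarct zone 3 of 3 tested skeletal muscle markers were higher in cell sheet-treated than in sham hearts (median log2 fold change 2.76), with scores of −0.03 to 5.33 (median 0.09) against −1.16 to −0.32 (median −0.88). The part of these cells in the differences was not tested.

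**Figure D3:**
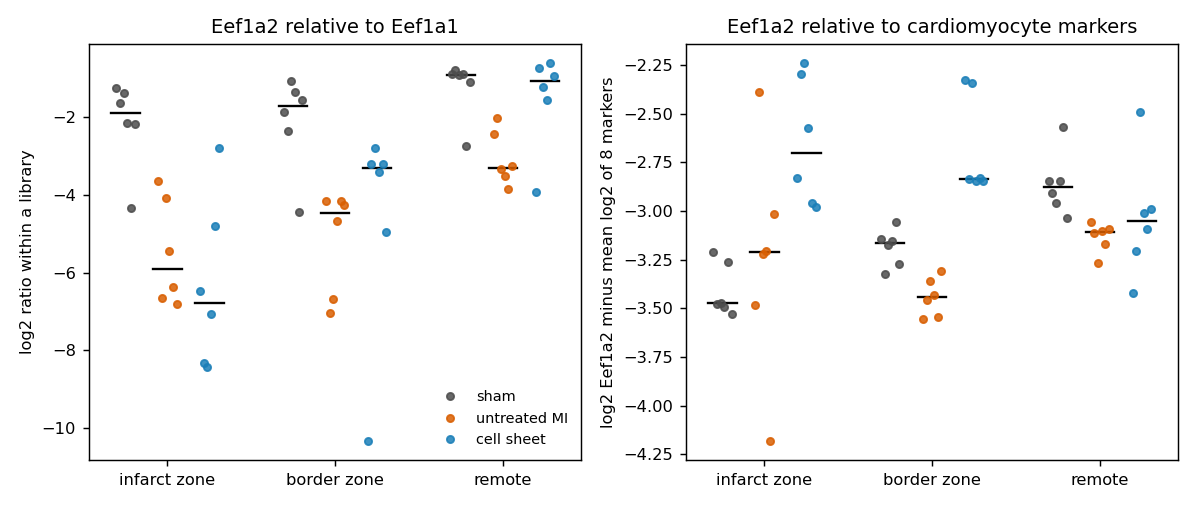
Left, log2 ratio of Eef1a2 to Eef1a1 within each library; right, log2 Eef1a2 minus the mean log2 (CPM + 0.1) of 8 cardiomyocyte markers. Points are libraries of sham, untreated MI and cell sheet-treated hearts by zone and lines are medians, and on the right the border libraries of cell sheet-treated hearts (−2.85 to −2.33) lie above those of untreated MI hearts (−3.56 to −3.31). The value of −2.33 is that of cell sheet replicate 1, which had little cardiomyocyte RNA.

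The eEF1B subunits Eef1b2, Eef1d and Eef1g, and Eef1e1 listed with them, were all lower at the border of cell sheet-treated hearts. The median log2 fold change of these 4 genes against untreated MI was −0.61, and 9.48% of all genes were called lower there. Eef1b2, the exchange factor itself, measured 151 to 247 CPM (median 184) in sham hearts, 248 to 391 (median 266) in untreated MI hearts and 123 to 211 (median 158) in cell sheet hearts. It was higher in untreated MI than in sham hearts (0.62 ± 0.16, adjusted p = 0.00897) and lower with the cell sheet than in untreated MI hearts (−0.83 ± 0.16, adjusted p = 0.00408), with no overlap in either case. Cell sheet and sham libraries overlapped (−0.23 ± 0.16, adjusted p = 0.254). Eef1g, the structural subunit, measured 789 to 1067 CPM (median 813) in untreated MI hearts and 478 to 586 (median 576) in cell sheet hearts, without overlap. Its change was −0.66 ± 0.12, adjusted p = 0.00311. Eef1d, the other exchange subunit, measured 99.8 to 122 CPM (median 107) in untreated MI hearts and 73.7 to 92.3 (median 76.4) in cell sheet hearts, again without overlap. The change of Eef1d was −0.45 ± 0.09, adjusted p = 0.00475. Eef1d was also lower than in sham hearts (−0.50 ± 0.08, adjusted p = 0.000687). The change of Eef1e1, a component of the tRNA synthetase complex, was −0.56 ± 0.11, adjusted p = 0.00537.

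Remote Eef1b2, Eef1d and Eef1g were lower with the cell sheet than without it. Eef1b2 measured 109 to 163 CPM (median 128) in sham hearts, 140.2 to 247 (median 195) in untreated MI hearts and 116 to 179 (median 134) in cell sheet hearts there. The cell sheet and untreated MI libraries overlapped. It was higher in untreated MI than in sham hearts (0.61 ± 0.14, adjusted p = 0.00666) and lower with the cell sheet (−0.51 ± 0.15, adjusted p = 0.0368). The Eef1b2 call for the cell sheet held without MI 1, MI 2, cell sheet 1 or cell sheet 6 and was lost without any 1 of the other 8 animals (adjusted p 0.0649 to 0.0872). The change of Eef1g was −0.56 ± 0.13, adjusted p = 0.017 and that of Eef1d was −0.27 ± 0.08, adjusted p = 0.0305. The Eef1d call held without MI 1, MI 2 or cell sheet 1 and was lost without any 1 of the other 9 animals (adjusted p 0.0517 to 0.0737). Ligation raised infarct zone Eef1b2 (0.44 ± 0.11, adjusted p = 0.00791) and Eef1g (0.51 ± 0.13, adjusted p = 0.00728), and Eef1d did not pass (0.03 ± 0.07, adjusted p = 0.733). Remote Eef1g was higher after ligation as well (0.44 ± 0.13, adjusted p = 0.0259), a call that held without sham 1, sham 5, MI 1, MI 2 or MI 3 and was lost without any 1 of the other 7 animals (adjusted p 0.0501 to 0.0643). Its border difference of 0.41 ± 0.16, adjusted p = 0.0576 passed without sham replicate 5 (adjusted p = 0.00981). Against sham, infarct zone Eef1b2 and Eef1g were also higher in cell sheet-treated hearts (0.41 ± 0.14, adjusted p = 0.0271 and 0.39 ± 0.15, adjusted p = 0.0437). The Eef1b2 call held without sham 4, sham 5, sham 6, cell sheet 1, cell sheet 4 or cell sheet 6 and was lost without any 1 of the other 6 animals (adjusted p 0.0506 to 0.118). The Eef1g call held without sham 5, cell sheet 1 or cell sheet 6 and was lost without any 1 of the other 9 animals (adjusted p 0.0621 to 0.174).

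Eef2, the translocation factor, rose in the infarct zone after ligation. It measured 1302 to 1828 CPM (median 1427) in sham hearts, 1914 to 2485 (median 2219) in untreated MI hearts and 1669 to 2685 (median 2112) in cell sheet hearts. Sham and untreated MI did not overlap, and the change was 0.54 ± 0.14, adjusted p = 0.00976. The border and remote changes of 0.25 ± 0.15, adjusted p = 0.203 and 0.04 ± 0.13, adjusted p = 0.828 did not pass. Cell sheet-treated infarct tissue also had more Eef2 than sham (0.50 ± 0.16, adjusted p = 0.0198), a call that was lost without cell sheet 3 (adjusted p = 0.0696). Against untreated MI its log2 fold changes ran from −0.28 in the remote to −0.06 in the infarct zone, and none of the 3 passed.

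Eef2k, the kinase that inhibits eEF2, rose after ligation in the infarct zone and fell in the remote zone. Its infarct zone levels were 54.7 to 66.7 CPM (median 61.5) in sham hearts, 58.4 to 98.3 (median 81.7) in untreated MI hearts and 75.0 to 99.6 (median 90.5) in cell sheet hearts. The change after ligation was 0.38 ± 0.11, adjusted p = 0.0112. Remote levels were 62.0 to 84.3 CPM (median 72.8) in sham hearts, 56.3 to 65.5 (median 60.3) in untreated MI hearts and 70.5 to 83.9 (median 75.1) in cell sheet hearts. They were lower after ligation (−0.29 ± 0.09, adjusted p = 0.0305) and higher with the cell sheet than without it (0.32 ± 0.07, adjusted p = 0.0146), where both groups did not overlap. The remote call after ligation held without sham 1, sham 5, sham 6 or MI 6 and was lost without any 1 of the other 8 animals (adjusted p 0.0501 to 0.0768), and it was also lost with library size alone as the scaling. The effect of ligation differed between the infarct and remote zones by 0.66 ± 0.12, adjusted p = 0.00204. Border zone Eef2k measured 59.6 to 69.1 CPM (median 63.7) in sham hearts, 57.0 to 79.9 (median 72.3) in untreated MI hearts and 81.0 to 103 (median 90.7) in cell sheet hearts. It was higher with the cell sheet than in untreated MI (0.38 ± 0.10, adjusted p = 0.0195) and than in sham hearts (0.49 ± 0.08, adjusted p = 0.000728), with no overlap in either comparison. The call against untreated MI was lost without cell sheet 6 (adjusted p = 0.0502).

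Of the 6 methyltransferases that modify elongation factors, 2 rose after ligation in infarct tissue, where 22.7% of all genes did, and 2 at the border, where 18.4% did. Eef1akmt3, which methylates eEF1A, was near the limit of counting in sham hearts, at 0.0727 to 0.499 CPM (median 0.203) in the infarct zone, while untreated MI hearts had 0.899 to 3.53 (median 2.08) and cell sheet-treated hearts 1.51 to 4.02 (median 2.57). The fitted log2 fold change was 3.06 ± 0.49, adjusted p = 0.000716 for untreated MI and 3.40 ± 0.43, adjusted p = 9.87e-05 for the cell sheet against sham, with no overlap. The border values were 2.63 ± 0.75, adjusted p = 0.016 and 2.31 ± 0.69, adjusted p = 0.0181, with 1 sham library at 0. These values depend on how the fit treats few counts. Eef2kmt, which methylates eEF2, measured 2.97 to 4.75 CPM (median 3.39) in sham hearts, 3.70 to 7.36 (median 5.60) in untreated MI hearts and 4.05 to 8.34 (median 6.62) in cell sheet hearts in the infarct zone. It was higher after ligation (0.68 ± 0.19, adjusted p = 0.0121) and in cell sheet-treated than in sham hearts (0.89 ± 0.17, adjusted p = 0.00143). Its border change of 0.50 ± 0.18, adjusted p = 0.0408 held without sham 3, sham 5, MI 1 or MI 6 and was lost without any 1 of the other 8 animals (adjusted p 0.0529 to 0.092).

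Among the 7 genes of start codon recognition and subunit joining, 3 fell in the infarct zone after ligation, where 27.2% of all genes did. Against untreated MI, 6 were lower with the cell sheet at the border and 2 in remote tissue, beside 9.48% and 6.79% of all genes. Eif1, which guards the choice of start codon, measured 381 to 664 CPM (median 549) in sham hearts, 337 to 429.9 (median 367) in untreated MI hearts and 209 to 327 (median 243) in cell sheet hearts in the border zone. It fell after ligation in the infarct (−0.63 ± 0.16, adjusted p = 0.00787) and border zones (−0.49 ± 0.13, adjusted p = 0.0124) and was lower with the cell sheet than in untreated MI hearts in the border zone (−0.52 ± 0.13, adjusted p = 0.017, no overlap). Against sham the border change with the cell sheet was −1.05 ± 0.16, adjusted p = 0.000387, without overlap. Eif5b, which joins the ribosomal subunits, fell after ligation in all 3 zones (−0.30 ± 0.11, −0.47 ± 0.10 and −0.29 ± 0.09, all called). Eif1a, an eIF1A gene whose reads may be shared with Eif1ax, went up after ligation and down with the cell sheet in the border zone, at 41.4 to 92.9 CPM (median 46.6) in sham hearts, 66.9 to 106 (median 86.8) in untreated MI hearts and 41.2 to 84.2 (median 56.4) in cell sheet hearts. The border changes of Eif1a were 0.70 ± 0.20, adjusted p = 0.0176 for untreated MI against sham and −0.57 ± 0.17, adjusted p = 0.0358 for the cell sheet against untreated MI. Its remote changes were 0.69 ± 0.20, adjusted p = 0.0244 and −0.60 ± 0.19, adjusted p = 0.0439. The border call for the cell sheet held without MI 1, MI 4, MI 6 or cell sheet 1 and was lost without any 1 of the other 8 animals (adjusted p 0.0606 to 0.0803). The remote call for ligation held without sham 5, sham 6, MI 1, MI 2 or MI 6 and was lost without any 1 of the other 7 animals (adjusted p 0.0526 to 0.0621). That for the cell sheet held without MI 1, MI 2 or cell sheet 1 and was lost without any 1 of the other 9 animals (adjusted p 0.0595 to 0.106), and both calls for the cell sheet were lost with library size alone.

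Of the 5 tested genes of the eIF2 ternary complex and its relatives, 4 were lower with the cell sheet than in untreated MI in the border zone. After ligation, 3 were lower in the infarct zone. Of all genes, 9.48% and 27.2% were lower in these comparisons. Eif2s2, the beta subunit, measured 169 to 203 CPM (median 178) in sham hearts, 145 to 183 (median 149) in untreated MI hearts and 85.1 to 106 (median 96.1) in cell sheet hearts in the border zone. It was lower with the cell sheet than in untreated MI (−0.69 ± 0.09, adjusted p = 0.000682) and than in sham hearts (−0.95 ± 0.08, adjusted p = 9.82e-06), with no overlap in either. Infarct zone levels were 180.2 to 249 CPM (median 214) in sham and 111 to 172 CPM (median 123) in untreated MI hearts, without overlap. The fall was −0.72 ± 0.13, adjusted p = 0.00149, and the effect of ligation there differed from that in the remote zone by −0.90 ± 0.16, adjusted p = 0.00226. Eif2s1, the alpha subunit that the stress kinases phosphorylate, measured 67.1 to 89.9 CPM (median 74.7) in sham hearts, 64.4 to 86.9 (median 74.5) in untreated MI hearts and 43.8 to 58.2 (median 51.0) in cell sheet hearts in the border zone. Its change with the cell sheet against untreated MI was −0.55 ± 0.09, adjusted p = 0.00198, without overlap. The remote change of Eif2s1 was −0.38 ± 0.09, adjusted p = 0.0141, also without overlap. After ligation it fell in the infarct zone (−0.36 ± 0.10, adjusted p = 0.013), and its remote difference was 0.26 ± 0.09, adjusted p = 0.053. The zones differed by −0.61 ± 0.12, adjusted p = 0.00259.

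Eif2b4, a subunit of the exchange factor eIF2B, fell after ligation in all 3 zones. It measured 36.5 to 47.9 CPM (median 46.0) in sham hearts, 20.6 to 27.1 (median 26.1) in untreated MI hearts and 21.2 to 33.3 (median 27.8) in cell sheet hearts in the border zone. Sham and untreated MI did not overlap there (−0.79 ± 0.10, adjusted p = 0.000299). The infarct change was −0.76 ± 0.14, adjusted p = 0.00135 and the remote one −0.54 ± 0.11, adjusted p = 0.00378. None of the 5 eIF2B genes passed for the cell sheet against untreated MI in any zone, and the highest log2 fold change was that of Eif2b4 in the remote zone (0.39 ± 0.13, adjusted p = 0.056), which passed without MI replicate 2 or cell sheet replicate 1 (adjusted p 0.00302 to 0.0429).

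Of the 4 kinases of eIF2, Eif2ak3 (PERK, of the endoplasmic reticulum) and Eif2ak4 (GCN2, of amino acid shortage) rose after ligation in the infarct zone. Eif2ak3 measured 22.5 to 32.5 CPM (median 26.6) in sham hearts, 28.1 to 43.4 (median 37.3) in untreated MI hearts and 34.3 to 49.4 (median 43.1) in cell sheet hearts there. Its change was 0.46 ± 0.12, adjusted p = 0.00961 in the infarct zone and 0.51 ± 0.12, adjusted p = 0.00673 in the border zone, where the groups did not overlap. Against sham it was also higher in cell sheet-treated hearts in the infarct (0.69 ± 0.10, adjusted p = 0.000313) and border zones (0.58 ± 0.12, adjusted p = 0.00241). The remote differences passed for ligation without sham replicate 5 (adjusted p = 0.0152) and for the cell sheet against untreated MI without cell sheet replicate 1 (adjusted p = 0.00434). Eif2ak4 measured 16.1 to 20.1 CPM (median 17.5) in sham hearts, 17.2 to 26.9 (median 21.3) in untreated MI hearts and 23.3 to 36.4 (median 28.4) in cell sheet hearts in the border zone. There its change with the cell sheet was 0.44 ± 0.14, adjusted p = 0.0453 against untreated MI and 0.68 ± 0.12, adjusted p = 0.000751 against sham. The former held without MI 3, cell sheet 3 or cell sheet 4 and was lost without any 1 of the other 9 animals (adjusted p 0.0545 to 0.0984), and was lost with library size alone. Infarct zone Eif2ak4 rose after ligation (0.40 ± 0.10, adjusted p = 0.00723). Eif2ak2 (PKR, of double-stranded RNA) passed in none of the 9 comparisons, with log2 fold changes from −0.19 to 0.06, and its highest value in each zone of sham hearts was that of replicate 5.

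Of the 12 tested subunits of eIF3, the largest initiation factor, 5 were lower with the cell sheet than in untreated MI hearts at the border. In remote tissue 1 was lower, and the shares of all genes lower were 9.48% and 6.79%. Against sham, 9 were lower with the cell sheet in the border zone, where 23.2% of all genes were. Eif3m measured 149 to 201 CPM (median 171) in sham hearts, 156 to 188 (median 164) in untreated MI hearts and 80.0 to 121 (median 106) in cell sheet hearts in the border zone. Its change with the cell sheet against untreated MI was −0.73 ± 0.11, adjusted p = 0.00134, without overlap. Remote levels were 110.1 to 147 CPM (median 132) in sham hearts, 146 to 227 (median 179) in untreated MI hearts and 99.2 to 149 (median 109) in cell sheet hearts. They were higher after ligation (0.46 ± 0.11, adjusted p = 0.0111) and lower with the cell sheet than without it (−0.67 ± 0.12, adjusted p = 0.0085). Infarct zone Eif3m fell after ligation (−0.42 ± 0.11, adjusted p = 0.00698), and the zones differed by −0.86 ± 0.15, adjusted p = 0.00184. Eif3e itself was counted once, in 1 library, while its near-identical copy Eif3el1 was well counted in all 54, and how reads shared by both were assigned is not given in the sources used here. Eif3el1 measured 139 to 213 CPM (median 161) in sham hearts, 167 to 189 (median 175) in untreated MI hearts and 82.7 to 121 (median 106) in cell sheet hearts in the border zone. The change was −0.78 ± 0.10, adjusted p = 0.000704 for the cell sheet against untreated MI and no overlap. Its remote change was −0.71 ± 0.10, adjusted p = 0.00569, likewise without overlap. Remote Eif3el1 was higher after ligation (0.34 ± 0.11, adjusted p = 0.0299), a call that held without sham 1, sham 5, sham 6, MI 1, MI 2 or MI 6 and was lost without any 1 of the other 6 animals (adjusted p 0.0632 to 0.0717).

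Eif3j, a loosely bound subunit, had the largest fall of the eIF3 genes after ligation. It measured 128 to 213 CPM (median 192) in sham hearts, 56.1 to 141 (median 76.5) in untreated MI hearts and 51.5 to 114 (median 57.2) in cell sheet hearts in the infarct zone. The changes were −1.07 ± 0.22, adjusted p = 0.00261 in untreated MI and −1.40 ± 0.22, adjusted p = 0.000399 in cell sheet-treated hearts against sham. Border changes were −0.71 ± 0.17, adjusted p = 0.00732 and −0.96 ± 0.20, adjusted p = 0.00274. Its remote differences passed for ligation without sham replicate 5 (adjusted p = 0.00213) and for the cell sheet against untreated MI without cell sheet replicate 1 (adjusted p = 0.0239). Eif3a, the largest subunit, passed in none of the 9 comparisons. Its log2 fold changes ran from −0.23 to 0.30, both in the remote zone. Its levels there were 276 to 303 CPM (median 286) in sham hearts, 182 to 316 (median 249.6) in untreated MI hearts and 259 to 341 (median 305) in cell sheet hearts.

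At the border of cell sheet-treated hearts, the scaffold Eif4g1 and the repressor Eif4ebp2 were higher than in untreated MI hearts and the cap-binding Eif4e was lower. Eif4e, which binds the cap, measured 114 to 148 CPM (median 138) in sham hearts, 67.7 to 124 (median 81.7) in untreated MI hearts and 62.2 to 92.1 (median 71.4) in cell sheet hearts in the infarct zone. It fell after ligation there (−0.69 ± 0.14, adjusted p = 0.00302) and in the border zone (−0.40 ± 0.09, adjusted p = 0.00624). Border zone levels were 119 to 139 CPM (median 129) in sham hearts, 84.0 to 113 (median 96.9) in untreated MI hearts and 64.6 to 89.5 (median 73.3) in cell sheet hearts. They were lower with the cell sheet than in untreated MI (−0.38 ± 0.10, adjusted p = 0.0224) and than in sham hearts (−0.81 ± 0.09, adjusted p = 4.66e-05). The call against untreated MI was lost without cell sheet 2 or cell sheet 6 (adjusted p 0.0562 to 0.0586). The infarct change with the cell sheet against sham was −0.89 ± 0.12, adjusted p = 0.000146. Eif4e3, a cap-binding relative, measured 43.1 to 90.4 CPM (median 47.5) in sham hearts, 29.7 to 40.3 (median 34.5) in untreated MI hearts and 29.5 to 41.2 (median 32.6) in cell sheet hearts in the infarct zone. Ligation lowered it in the infarct (−0.64 ± 0.18, adjusted p = 0.0123) and border zones (−0.60 ± 0.17, adjusted p = 0.0156), with no overlap in either. Its remote difference with the cell sheet against untreated MI, 0.19 ± 0.14, adjusted p = 0.339, passed without cell sheet replicate 1 (adjusted p = 0.0191).

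Eif4g1, the main scaffold, fell after ligation and was higher with the cell sheet than without it in the border and remote zones. It measured 349.9 to 489 CPM (median 409.8) in sham hearts, 287 to 342 (median 310.4) in untreated MI hearts and 387 to 454 (median 403) in cell sheet hearts in the border zone. Both sham and cell sheet-treated hearts lay wholly above untreated MI hearts. The changes there were −0.42 ± 0.11, adjusted p = 0.0119 for untreated MI against sham and 0.40 ± 0.09, adjusted p = 0.00838 for the cell sheet against untreated MI. Remote levels were 455 to 588 CPM (median 496) in sham hearts, 314 to 397 (median 339) in untreated MI hearts and 416 to 512 (median 469) in cell sheet hearts. The remote changes were −0.55 ± 0.09, adjusted p = 0.00207 and 0.41 ± 0.10, adjusted p = 0.0202, again without overlap. The remote call for the cell sheet was lost without cell sheet 2, cell sheet 5 or MI 5 (adjusted p 0.0506 to 0.053). Cell sheet against sham gave −0.05 ± 0.12, adjusted p = 0.759 in the border and −0.14 ± 0.09, adjusted p = 0.654 in the remote zone, with overlap. The infarct zone call after ligation (−0.29 ± 0.11, adjusted p = 0.0414) held without sham 5, sham 6 or MI 3 and was lost without any 1 of the other 9 animals (adjusted p 0.0518 to 0.0908), and was lost with library size alone.

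Eif4ebp2, the 4E-binding repressor of translation, followed the same order as Eif4g1. Border zone levels were 128 to 159 CPM (median 141) in sham hearts, 92.0 to 105 (median 95.2) in untreated MI hearts and 124 to 135 (median 129) in cell sheet hearts, and untreated MI hearts lay below every other library of the zone. The change was −0.57 ± 0.08, adjusted p = 0.000607 for ligation and 0.43 ± 0.06, adjusted p = 0.00118 for the cell sheet against untreated MI. Remote levels were 160.5 to 188 CPM (median 177) in sham hearts, 104 to 121 (median 112) in untreated MI hearts and 112 to 169.6 (median 156) in cell sheet hearts. The changes were −0.66 ± 0.07, adjusted p = 0.000583 and 0.40 ± 0.10, adjusted p = 0.0193. The latter was lost without cell sheet 5 (adjusted p = 0.0505). Infarct zone Eif4ebp2 fell after ligation (−0.32 ± 0.08, adjusted p = 0.00786) and stayed below sham with the cell sheet (−0.27 ± 0.08, adjusted p = 0.0146). Eif4ebp1, a second repressor and a target of the stress response, rose in the infarct zone instead. It measured 29.0 to 38.1 CPM (median 35.5) in sham hearts, 41.5 to 60.4 (median 46.9) in untreated MI hearts and 42.0 to 64.2 (median 50.5) in cell sheet hearts there. The change was 0.51 ± 0.11, adjusted p = 0.00367 for untreated MI and 0.57 ± 0.11, adjusted p = 0.00105 for the cell sheet against sham, neither overlapping.

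**Figure D4:**
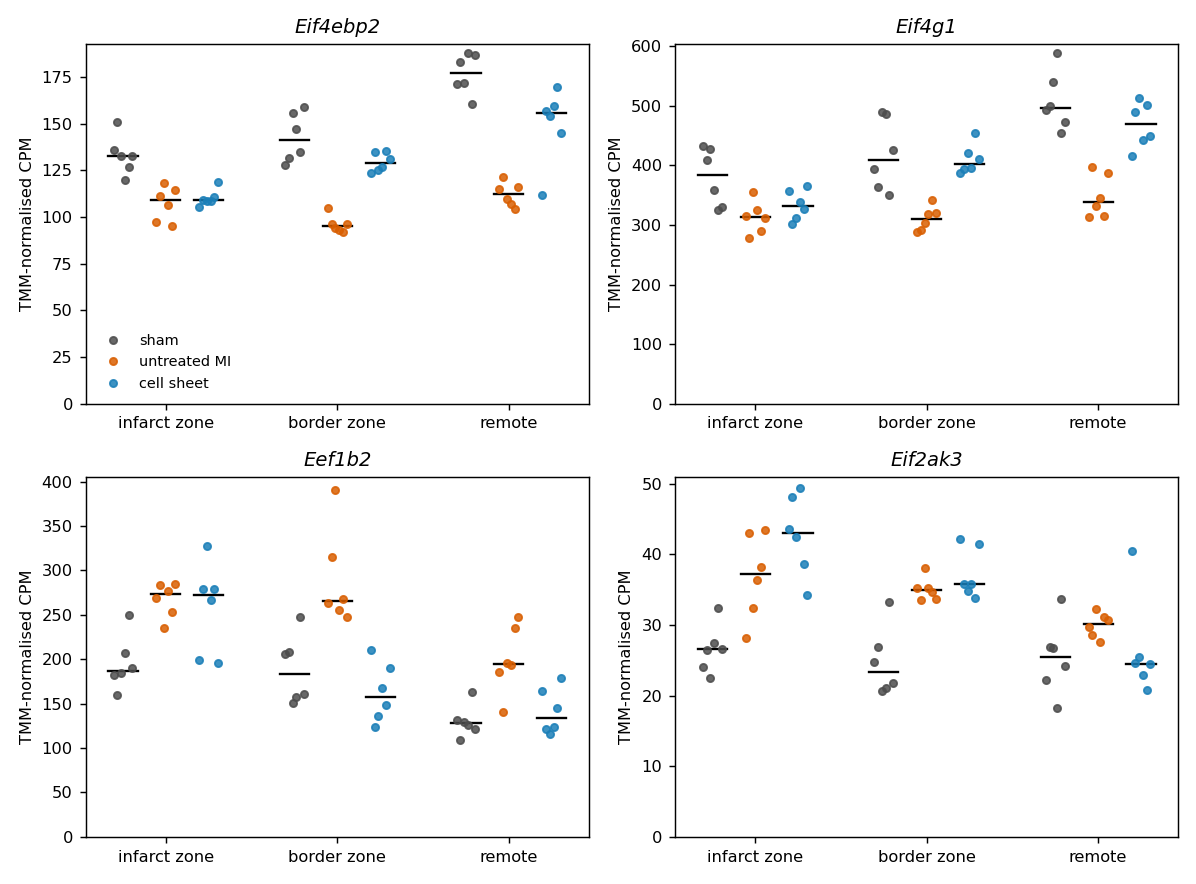
TMM-normalised CPM of Eif4ebp2, Eif4g1, Eef1b2 and Eif2ak3, 1 point per library, for sham, untreated MI and cell sheet-treated hearts in each zone, with a line at the median of 6 libraries. Border zone medians in sham, untreated MI and cell sheet-treated hearts were 141, 95.2 and 129 CPM for Eif4ebp2 and 184, 266 and 158 CPM for Eef1b2.

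The helicase eIF4A has a pair of forms, of which Eif4a2 is abundant in muscle and brain. Eif4a2 measured 394 to 731 CPM (median 638) in sham hearts, 298 to 409.8 (median 337) in untreated MI hearts and 295 to 459 (median 325) in cell sheet hearts in the infarct zone. It fell after ligation there (−0.82 ± 0.15, adjusted p = 0.0016) and in the border zone (−0.53 ± 0.15, adjusted p = 0.0155). Its remote difference of −0.26 ± 0.12, adjusted p = 0.133 passed without sham replicate 5 (adjusted p = 0.00651). Eif4a1 measured 210.5 to 455 CPM (median 229) in sham hearts, 318 to 505 (median 350.2) in untreated MI hearts and 225 to 444 (median 279.6) in cell sheet hearts in the border zone. It was higher there after ligation (0.57 ± 0.21, adjusted p = 0.0477), a call that held without sham 5, MI 1 or MI 4 and was lost without any 1 of the other 9 animals (adjusted p 0.053 to 0.102). Its infarct difference was 0.41 ± 0.18, adjusted p = 0.0767, which passed without sham replicate 5 or MI replicate 1 (adjusted p 0.000937 to 0.0381). Remote Eif4a1 with the cell sheet differed by −0.32 ± 0.12, adjusted p = 0.0797 from untreated MI, and the comparison passed without cell sheet replicate 1 (adjusted p = 0.0074). The log2 ratio of Eif4a2 to Eif4a1 was −0.14 to 1.53 (median 1.42) in sham and −0.57 to 0.32 (median 0.01) in untreated MI hearts of the infarct zone. The difference was −1.25 (exact adjusted p = 0.0244). Ligation changed the ratio by −1.13 (exact adjusted p = 0.0244) in the border zone, and the remote difference was −0.59 (exact adjusted p = 0.0942). Remote ratios were higher with the cell sheet than in untreated MI hearts by 0.59 (exact adjusted p = 0.0405). They differed by 0.24 (exact adjusted p = 0.593) in the border and 0.08 (exact adjusted p = 0.78) in the infarct zone. Against sham it differed by −1.17 (exact adjusted p = 0.0244), −0.88 (exact adjusted p = 0.0722) and 0.00 (exact adjusted p = 0.994) in the infarct, border and remote zones.

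Eif5a2, the second gene of the hypusine-bearing factor eIF5A, rose after ligation in all 3 zones. Remote levels were 10.4 to 13.8 CPM (median 11.1) in sham hearts, 17.6 to 23.0 (median 19.7) in untreated MI hearts and 7.93 to 20.2 (median 10.6) in cell sheet hearts. Sham and untreated MI did not overlap (0.79 ± 0.11, adjusted p = 0.00088). Cell sheet-treated hearts had less than untreated MI hearts there (−0.76 ± 0.20, adjusted p = 0.0251), a call that held without MI 1, MI 2, MI 3, MI 6, cell sheet 1 or cell sheet 6 and was lost without any 1 of the other 6 animals (adjusted p 0.0502 to 0.062). The infarct change after ligation was 0.64 ± 0.15, adjusted p = 0.00438 and the border one 0.53 ± 0.19, adjusted p = 0.0428. The border call held without sham 2, sham 5, MI 1 or MI 2 and was lost without any 1 of the other 8 animals (adjusted p 0.067 to 0.0935). Eif5a, the main form, measured 257 to 389 CPM (median 280.0) in sham hearts, 263 to 337 (median 287) in untreated MI hearts and 184 to 232 (median 215) in cell sheet hearts in the border zone. It was lower there with the cell sheet than in untreated MI (−0.47 ± 0.09, adjusted p = 0.00418) and than in sham hearts (−0.51 ± 0.11, adjusted p = 0.00315), without overlap. Its infarct call against sham (−0.30 ± 0.10, adjusted p = 0.0263) was lost without cell sheet 1 or cell sheet 4 (adjusted p 0.0625 to 0.0634), and was lost with library size alone. Eif6, which keeps the large subunit from joining too early, passed in none of the 9 comparisons, with log2 fold changes from −0.23 to 0.13. Its infarct difference after ligation passed without sham replicate 5 (adjusted p = 0.0211). Of the pseudogene copies, Eif5b-ps1 was lower after ligation in the border zone, at 1.24 to 3.16 CPM (median 2.19) in sham hearts and 0.993 to 1.35 (median 1.16) in untreated MI hearts (−0.84 ± 0.24, adjusted p = 0.0161), and its reads could come from Eif5b.

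In cell sheet-treated against untreated MI border tissue, 22 members were lower. They were the 4 genes listed with eEF1B, Eef1e1 among them, 6 of start codon recognition, 4 of eIF2, 5 of eIF3, Eif4e, Eif5a and Eif3el1. Those of start codon recognition ran from −0.57 (Eif1a) to −0.35 (Eif1ax), with −0.55 for Eif1b, −0.41 for Eif1ad and −0.37 for Eif5, the factor that makes eIF2 hydrolyse GTP. The lower eIF2 genes included Eif2s3, the gamma subunit (−0.41), and Eif2d (−0.28), and the eIF3 genes beside Eif3m were Eif3i (−0.50), Eif3f (−0.40), Eif3h (−0.34) and Eif3d (−0.31). The 6 higher members were Eef2k, Eif2ak1 (the heme-regulated eIF2 kinase, 0.22 ± 0.06, adjusted p = 0.0311), Eif2ak4, Eif4g1, Eif4g3 (a second scaffold, 0.40 ± 0.09, adjusted p = 0.00911) and Eif4ebp2. Of the 14 members called in the remote zone, 12 were called in the same direction in the border zone, which was 85.7% of the remote and 42.9% of the border list. Both lists come from the same 12 rats. The same overlap was not counted over all genes, so whether it is particular to these members is not known. Eef1a1 and Eif5a2 were called in the remote zone and not in the border zone. Of the 22 lower members of the border zone, 19 matched a promoter entry and 8 of these held the C-led pyrimidine run described with the sequences, against 2 of 6 among the higher and 11 of 33 among the members that did not pass.

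**Figure D5:**
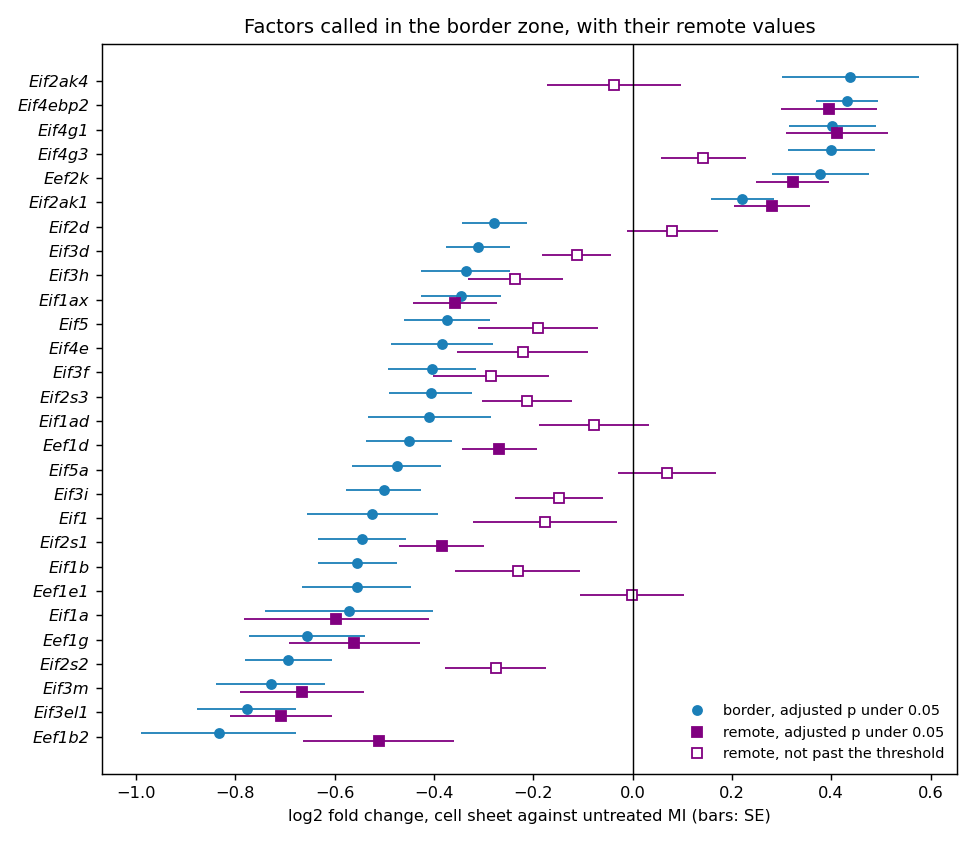
Log2 fold change of the cell sheet against untreated MI for the 28 members called in the border zone, with circles for the border zone, squares for the remote zone and bars for 1 standard error; open symbols did not pass an adjusted p of 0.05. At the border, 22 members lie below 0 and 6 above it, from −0.83 for Eef1b2 to 0.44 for Eif2ak4.

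Other cells moved in the same libraries. At the border, 0 of 8 cardiomyocyte markers, 0 of 6 fibroblast markers and 0 of 6 macrophage markers were called between cell sheet-treated and untreated MI hearts. In the same comparison, 1 of 5 endothelial and 1 of 4 smooth muscle markers were higher, and 2 of the 3 adipocyte markers tested were higher, with a median log2 fold change of 4.92. The adipocyte score spanned −3.18 to 6.18 (median 4.58) in cell sheet-treated and −3.32 to 1.70 (median −2.11) in untreated MI hearts. Reads that the counting assigned to no feature made up 16.7 ± 3.40% (SD, n = 6) of the counts in the former and 18.6 ± 3.54% in the latter. The remote share was 23.1 ± 2.84% with the cell sheet and 31.2 ± 4.11% in untreated MI hearts. There, 2 of 8 cardiomyocyte markers were higher with the cell sheet, 1 of 4 smooth muscle markers was higher, and 1 fibroblast, 1 macrophage and 1 endothelial marker were lower. The infarct zone skeletal muscle score of cell sheet replicates 2 and 6 was 3.75 and 5.33, against a group median of 0.09. After ligation, 5, 6 and 5 of 6 fibroblast markers and 4, 4 and 2 of 6 macrophage markers were higher (infarct, border, remote). Of the 4 smooth muscle markers, 4, 3 and 3 were higher, with 1 lower in remote tissue and median log2 fold changes of 3.76, 3.20 and 1.46, and of the 5 proliferation markers 2, 3 and 2 were higher. The part of these cells and of the share assigned to no feature in the members' changes was not tested.

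Of the 68 members tested, 18 passed in none of the 9 comparisons. Beside those named above they were Eif3b, Eif3c, the helicase Eif4a3 of the exon junction complex, the eIF4A partners Eif4b and Eif4h, Eif4g2, Eif4g2-ps1, Eif4ebp3, Eif4enif1, Eif2b2, Eif2b3 and 4 methyltransferases of eEF1A. The values of Eif4g2, a scaffold that does not bind eIF4E, ran from −0.29 to −0.01 in log2 fold change.

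Whether a treatment acted differently by zone was tested with each animal as a block. The effect of ligation on 20 of 68 members differed between the infarct and remote zones, 9 being more positive and 11 more negative in the infarct zone, and 28.9% of all genes did. Without sham replicate 5 there were 17, 6 and 11 in these directions, beside 4101 of all genes. Among members called, the most negative differences were those of Eif2s2, Eif3j (−0.88 ± 0.18, adjusted p = 0.0037), Eif3m and Eif3el1 (−0.80 ± 0.15, adjusted p = 0.00232), and the most positive, beside the sparsely counted Eef1akmt3, were those of Eef2k and Eif4g3 (0.63 ± 0.11, adjusted p = 0.00184). Beside them, Eef1a2 differed by −1.16 ± 0.44, adjusted p = 0.0609 and Eef1akmt4 by 0.95 ± 0.52, adjusted p = 0.18, neither called. For the cell sheet against untreated MI, edgeR called 0 members between the border and remote zones (0% of all genes) and 0 between the border and infarct zones (0%). With an unadjusted p under 0.05 there were 11 and 17 members, and the lowest adjusted p was 0.103 and 0.186. DESeq2 called 5 and 4 members, and 1081 and 353 of all genes. Without cell sheet replicate 1, edgeR called 2 members and 216 of all genes between the border and remote zones. The edgeR fits of all animals therefore do not show that the effect of the cell sheet differs between zones, while DESeq2 calls some genes.

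Genes that act on these factors were read from 6 lists made by function. Of 16 targets and phosphatase subunits of the integrated stress response, which follows the phosphorylation of eIF2, 2 rose and 3 fell after ligation in infarct tissue, 2 and 3 at the border and 1 and 2 in the remote zone. For this list and those below, the shares of all genes called after ligation were 22.7% higher and 27.2% lower (infarct), 18.4% and 23.2% (border) and 11.7% and 14.2% (remote). With the cell sheet against untreated MI they were 8.47% and 9.48% (border) and 10.3% and 6.79% (remote). Nupr1, a stress-induced chromatin protein, rose by 1.98, 1.80 and 1.56 on the log2 scale, and Ddit3 (CHOP) fell by 0.91 and 0.72 in the infarct and border zones. Cell sheet-treated border tissue had 2 of the list lower than untreated MI tissue, Atf4, the central factor of this response (−0.56 ± 0.11, adjusted p = 0.00538), and Trib3, its feedback inhibitor (−0.73 ± 0.23, adjusted p = 0.0441). Remote tissue had 2 lower, Ppp1r15b and Atf5 (−0.49 and −0.34).

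Of 14 genes of mTORC1 and its regulators, 2 rose and 6 fell after ligation in infarct tissue, 2 and 5 at the border and 0 and 4 in the remote zone, beside 22.7% and 27.2%, 18.4% and 23.2%, and 11.7% and 14.2% of all genes. With the cell sheet, 4 were higher and 3 lower than in untreated MI hearts in the border zone, and 4 higher and 0 lower in the remote zone. Rptor, the subunit that recruits the substrates of the kinase, had the largest remote fall after ligation (−0.61 ± 0.09, adjusted p = 0.00102) and the largest remote rise with the cell sheet (0.55 ± 0.11, adjusted p = 0.0105). The highest border value of the list with the cell sheet was 0.81. Mtor, the kinase itself, was among the called border rises (0.51 ± 0.08, adjusted p = 0.00133). Tsc1 and Tsc2, which inhibit mTORC1, rose with it (0.40 ± 0.08, adjusted p = 0.00429 and 0.45 ± 0.10, adjusted p = 0.0107). Rragc, a GTPase of amino acid sensing, was lower at the border (−0.39 ± 0.09, adjusted p = 0.00987) and had risen there after ligation (0.47 ± 0.12, adjusted p = 0.00906).

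Of 10 other regulators of cap-dependent initiation, 2 rose and 5 fell after ligation in infarct tissue, 1 and 2 at the border and 0 and 3 in the remote zone, beside the same shares of all genes. Pabpc1, the main poly(A)-binding protein, led the infarct rises (0.97 ± 0.30, adjusted p = 0.0176) and Pabpc4, a related protein, the falls (−0.98 ± 0.25, adjusted p = 0.0069). With the cell sheet, 2 were higher and 4 lower than in untreated MI hearts in the border zone, and 2 higher and 1 lower in the remote zone. Mcts1, which acts in reinitiation, fell most at the border (−0.85 ± 0.10, adjusted p = 0.000629), and Pabpc1 was the 1 that fell in remote tissue (−0.93 ± 0.22, adjusted p = 0.0167). Larp1, which binds 5′ terminal oligopyrimidine tracts, was higher in both zones (0.35 ± 0.07, adjusted p = 0.00766 at the border and 0.44 ± 0.10, adjusted p = 0.0162 in remote tissue).

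Mitochondrial translation factors fell with ligation, 5 of 6 in the infarct, 5 in the border and 3 in the remote zone, with a median log2 fold change of −1.10, −0.92 and −0.52. The largest fall in the infarct zone was that of Mtif2, the mitochondrial initiation factor (−1.61 ± 0.24, adjusted p = 0.000447). Gfm1 and Gfm2, the mitochondrial elongation and recycling factors, were higher with the cell sheet than without it in remote tissue (0.60 ± 0.17, adjusted p = 0.0289 and 0.69 ± 0.11, adjusted p = 0.00656). At the border, 0 of the 6 passed for the cell sheet. Of the 7 tested enzymes that make hypusine on eIF5A and diphthamide on eEF2, 4 fell in the infarct zone after ligation. Dhps, the first enzyme of the hypusine pathway, fell in all 3 zones, by 1.02, 0.80 and 0.43 on the log2 scale. Of the 4 termination and recycling factors, 2 fell in the infarct zone after ligation and 1 was lower with the cell sheet in the border zone. For infarct tissue, 0 genes of any of the 6 lists passed for the cell sheet against untreated MI.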

How the data were processed

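RNA from the infarct zone, border zone and remote tissue of 18 rats (54 libraries, 6 per group and zone) was enriched for poly(A), sequenced as paired reads and, per the study's methods, aligned with STAR to the rat assembly mRatBN7.2. The deposited values are raw read counts per gene as the authors left them. The counting tool, its use of strand and its handling of shared reads are not given in the sources used here. The 5 summary lines of each file, 17.0 to 42.8% of its counts, were excluded from library sizes and tests. Gene counts per library were 12699200 to 23397800, so that 3 counts equal 0.128 to 0.236 CPM, and such limits cover counting error only.

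Counts were tested in R 4.3.3 with edgeR 4.0.16, for each pair of groups within a zone on the 12 libraries of that pair, after edgeR's filter on low expression and TMM normalisation, with the quasi-likelihood test and Benjamini-Hochberg adjustment over all genes tested. A member was called at an adjusted p under 0.05. Levels are TMM-normalised CPM. Differences of effect between zones were fitted with the animal as a block. Marker scores and ratios use log2 (CPM + 0.1) and 2-sided exact permutation tests of the difference of means, with Benjamini-Hochberg adjustment over 27 tests. DESeq2 1.42.0, other filters, no offset on the log scale, 3 cardiomyocyte markers alone, library size without TMM, 1 fit of all libraries, a replicate block and leaving out each animal in turn were alternatives. The methods were tested on simulated data. Figures were drawn with matplotlib 3.10.9 in Python 3.11.15.

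The members and lists were chosen with earlier results of these data known. Named genes were 22 key genes by role and, per comparison, the 3 called members that rose most and the 3 that fell most among those with a mean of at least 1 CPM, and per list the called genes with the largest changes. Eif1ad, Eif1ax, Eif1b, Eif2d, Eif2s3, Eif3d, Eif3f, Eif3h, Eif3i, Eif5, Eif5b, Eif4g3, Eif2ak1 and the members that never passed were named, like Tsc1, Tsc2 and Larp1, after their values were seen, to account for the counts. Start sequences are from RefSeq on GRCr8, another assembly than that of the counts, and matched by symbol.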

Additional observations from a re-analysis of the deposited data

Results flagged for a closer look

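With 6 libraries in a group, the highest or lowest was marked where its gap to the nearest other library took up an unusually large part of the group's range (Dixon's test at 95%). Chance marks about 1 in 20 groups, and 24 of 171 checks of group and measure were marked, 16 of them for sham replicate 5. In that animal, Eef1a1 was at 4474 CPM in the infarct, 5095 CPM in the border and 3781 CPM in the remote zone, above all other sham libraries. Remote Eef1a2 was at 564 CPM, and the log2 ratio of Eef1a2 to Eef1a1 was −4.33 in the infarct and −2.75 in the remote zone. Its Eif4a1 was at 434, 455 and 353 CPM and its Eif3j at 128, 126 and 142 CPM in the infarct, border and remote zones. The log2 ratio of Eif4a2 to Eif4a1 was −0.14, −0.30 and −0.11 in the same order, and infarct zone Eif2ak2 was at 95.5 CPM.

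Cell sheet replicate 1 was marked in the border zone for a log2 ratio of Eef1a2 to Eef1a1 of −10.33. In the remote zone that ratio was −3.94, with Eef1a1 at 3434 CPM, Eef1a2 at 224 CPM, Eif3j at 89.0 CPM and Eef1akmt3 at 2.01 CPM. In MI replicate 1, border zone Eif4ebp2 was at 105 CPM and infarct zone Eif2b4 at 34.7 CPM, the highest values of their groups.

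The effect of ligation on 20 members differed between the infarct and the remote zone in the fit with the animal as a block. In log2 fold change, infarct minus remote, the difference was positive for Eef1akmt3 (2.05), Eef2k (0.66), Eif4g3 (0.63), Eef2 (0.51), Eif3b (0.46), Eif4e2 (0.35), Eif4ebp2 (0.34), Eif4h (0.34) and Eif2ak1 (0.29). It was negative for Eif2s2 (−0.90), Eif3j (−0.88), Eif3m (−0.86), Eif3el1 (−0.80), Eif4e (−0.73), Eif2s1 (−0.61), Eef1e1 (−0.61), Eif4a2 (−0.55), Eif1 (−0.50), Eif5 (−0.44) and Eif1ax (−0.42). Among all genes tested, 28.9% differed in this way.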

How the results depend on the processing

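Of the 124 calls of named genes, 68 were kept in every fit run, 56 were lost in at least 1 and 0 turned direction. Of the 161 comparisons of named genes that were not called, 59 changed sign in at least 1 fit, 24 of them with library size without TMM, where Eif3a for the cell sheet against sham in the infarct zone also passed (0.23, against −0.04 with TMM). Members called lay within 1.5 times the counts of the report except as follows. With a replicate block, 11 members were called for untreated MI against sham in the border zone, beside 4193 of all genes. For the cell sheet against untreated MI the block gave 13 and 0 members in the border and remote zones, beside 1214 and 2 of all genes. Replicate numbers mark different rats across groups, and deviations of libraries with the same number correlated at −0.73 to 0.61, so the numbers do not pair the samples. Without a filter on low counts, 9 members and 1774 of all genes were called for the cell sheet against untreated MI in the remote zone. DESeq2 and the fit of all 54 libraries each called 2 members for the cell sheet against sham there, and 180 and 183 of all genes. For the cell sheet's effect against untreated MI in the border zone compared with the remote and infarct zones, DESeq2 called 5 and 4 members. It called 1081 and 353 of all genes in these. The causes were not tested.

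Leaving out 1 animal, calls in the remote zone ranged from 7 to 24 for untreated MI against sham and from 6 to 24 for the cell sheet against untreated MI. Calls of all genes in these fits ranged from 2744 to 7177 and from 1096 to 6450. The effect of the cell sheet against untreated MI compared between border and remote zones gave 0 to 2 members, and 0 to 216 of all genes. The difference in the log2 ratio of Eef1a2 to Eef1a1 ranged from 1.39 (without cell sheet replicate 5) to 2.05 (without cell sheet replicate 1) for the cell sheet against untreated MI in the remote zone and from −3.01 (without sham replicate 5) to −1.41 (without cell sheet replicate 1) against sham in the border zone. For Eif4a2 to Eif4a1 it ranged from −0.83 to −0.50 for untreated MI against sham and from 0.49 to 0.73 for the cell sheet against untreated MI, both in the remote zone, and against sham from −1.43 to −1.07 in the infarct and −1.15 to −0.70 in the border zone. Eef1a2 against the cardiomyocyte score ranged from 0.42 to 0.78 for the cell sheet against untreated MI in the infarct zone and from −0.28 to −0.10 against sham in the remote zone, and with Tnnt2, Tnni3 and Mybpc3 as the only markers these were 0.74 and −0.30.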
